A study of Homo sapiens with 9 samples.

Results

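The apolipoprotein L (APOL) genes of HepG2 cells, a human liver cancer cell line, were followed in RNA-seq libraries of 3 groups. Members were taken by name, as every row of the deposited tables whose symbol is APOL followed by a single digit, and 5 genes matched in both tables, *APOL1*, *APOL2*, *APOL3*, *APOL4* and *APOL6*, out of 12854 genes in both. *APOL5* was not analysed here. The groups were a control line with a control hairpin (sh-Con) and a pair of lines, sh1-*TUG1* and sh2-*TUG1*, each with a different short hairpin RNA against the long non-coding RNA *TUG1*, with 3 libraries per group and 9 in all. All 3 lines were made with a doxycycline-inducible lentiviral shRNA vector, Tet-pLKO-Puro, and each hairpin is represented by a single line. Both knockdown lines were compared with the same 3 control libraries, so the comparisons are not independent of each other. The family was chosen by the counts of *APOL1* and *APOL2* in these libraries, and the symbol then brought in the rest, so differences of its members between groups are given as a description, with standard errors and without p-values.

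APOL proteins bind and permeabilise membranes. *APOL1* is the secreted member, made largely by the liver, and circulates on high-density lipoprotein (HDL) particles together with haptoglobin-related protein, where it forms part of the complex that kills trypanosomes. The other members lack a signal peptide and stay inside cells. Interferons and tumor necrosis factor are known to induce APOL genes in many cell types.

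Libraries held 33054291 to 39393293 counts. Replicates of a group differed by more than counting noise, with a chi-squared per degree of freedom of 6.41 to 25.8 over 10772 genes. This does not tell what kind of replicate they are. The study calls them technical replicates, so SDs and standard errors cover the spread between these libraries and not that between separate cultures. *TUG1* itself was not analysed here, and the labels were not checked against it. All 12 hepatocyte markers were present, with a summed level in CPM (counts scaled to the normalized size of the library) of 48624 to 50879 for sh-Con, 52296 to 53907 in sh1-*TUG1* and 54945 to 57682 in sh2-*TUG1*. The sum follows *ALB*, which rose in sh2-*TUG1* (log2 fold change 0.91, adjusted p 1.5e-06), whereas 8 of the 12 had a log2 fold change below 0 there, with *TTR* at -0.82 (adjusted p 0.00036) and *SERPINA1* at -0.60 (adjusted p 0.00080), and a median of -0.12. Of 6 fibroblast markers *PDGFRB* alone was listed, at 19.3 to 21.8, 31.9 to 34.4 and 53.1 to 58.5 CPM, with log2 fold changes of 0.65 (adjusted p 0.00019) and 1.44 (adjusted p 1.0e-06). Of 6 immune markers *CD68* and *LYZ* were listed, summing to 926 to 1138, 1155 to 1243 and 713 to 778 CPM, and *PTPRC* had no row. Most of that sum was *LYZ*, while *CD68* was at 63.7 CPM in sh-Con, 35.2 in sh1-*TUG1* and 20.8 in sh2-*TUG1*, with log2 fold changes of -0.86 (adjusted p 8.0e-05) and -1.61 (adjusted p 7.0e-06). Of 4 endothelial markers *PECAM1* and *VWF* were listed, summing to 8.75 to 9.46, 11.3 to 12.2 and 12.2 to 13.6 CPM. *VWF* was at 1.49, 3.96 and 4.70 CPM, with log2 fold changes of 1.40 (adjusted p 0.0031) and 1.65 (adjusted p 0.00078), while *PECAM1* was at 0.056 and 0.12 and passed in neither line. The part of these markers in the APOL results was not tested.

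All members lie on the long arm of chromosome 22 (GRCh38, GENCODE 29 positions). *APOL6* spans chr22:35648395-35668409 on the plus strand. Further along, *APOL3* (chr22:36140330-36166177), *APOL4* (chr22:36189124-36204840) and *APOL2* (chr22:36226203-36239954) are read from the minus strand, and *APOL1* (chr22:36253010-36267530) from the plus strand. *APOL2* and *APOL1* are neighbours that point away from each other, with 13055 bases between their start sites. No other annotated gene overlaps any of the 5. Their longest coding transcripts, with untranslated regions (UTRs), are 3000 bases for *APOL1* in 7 exons, 2685 for *APOL2*, 3626 for *APOL3*, 3423 for *APOL4* and 10121 for *APOL6*, of which 8813 are 3′ UTR. Over aligned coding sequence *APOL1* and *APOL2* are the closest pair of the members, identical at 81.25% of 1008 positions, and *APOL3* and *APOL4* follow at 75.2%. Long identical stretches were few, as 0.169% of the 50-base words of the *APOL1* transcript also occur in that of *APOL2*, and the longest run they share is 52 bases.

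The study asked whether *TUG1* sequesters miR-122-5p, a microRNA abundant in liver, so the APOL transcripts were searched for matches to its seed, of which 1 kind is reported. The letters ACACTCC, which pair with bases 2 to 8, were looked for in the 3′ UTR of the longest coding transcript, on the transcript strand only. Below, the seed of the microRNA (RefSeq, GRCh38.p14, chr18:58451088-58451109, plus strand) and the matched letters are in capitals, read 5′ to 3′.
hsa-miR-122-5p: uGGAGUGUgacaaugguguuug
*APOL4* 3′ UTR, match at base 870 of 1946: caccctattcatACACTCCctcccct
*APOL4* held a match of this kind, as did 8.57% of 11752 genes with a coding transcript. Other kinds of seed match are not reported here, so nothing on which members lack a match can be read from this. MiR-122-5p was not measured in these libraries, and a match is not evidence of a bound site.

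*APOL1* transcripts were at 31.7% of the control level in sh1-*TUG1* and at 27.2% in sh2-*TUG1*. Raw counts were 8095, 8549 and 9241 in the sh-Con libraries, 2685, 2944 and 2916 in sh1-*TUG1*, and 2276, 2240 and 2551 in sh2-*TUG1*. Normalized by TMM, the levels were 246.9, 252.8 and 247.5 CPM for sh-Con, 78.6, 81.2 and 77.4 CPM for sh1-*TUG1*, and 70.0, 67.0 and 66.1 CPM for sh2-*TUG1*. Every control library was above every knockdown library, and all sh2-*TUG1* libraries were below all of sh1-*TUG1*. The mean was 249 ± 3.21 CPM for the control, 79.1 ± 1.95 CPM with the first hairpin and 67.7 ± 2.04 CPM with the second (SD, n = 3). The log2 fold change was -1.66 (SE 0.043) in sh1-*TUG1*, a level 3.15-fold lower, and -1.88 (SE 0.048) in sh2-*TUG1*, 3.68-fold lower. Ranked from the lowest fold change, *APOL1* was number 15 of 13017 genes in sh1-*TUG1* and number 68 of 12953 in sh2-*TUG1*. For scale, the median log2 fold change of all genes was 0.0027 and -0.0048.

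*APOL2*, the intracellular neighbour of *APOL1*, was lower as well. Its raw counts were 3167, 3236 and 3455 in sh-Con, 1193, 1255 and 1362 in sh1-*TUG1*, and 1236, 1154 and 1257 in sh2-*TUG1*. In CPM these were 96.6, 95.7 and 92.6 in sh-Con, 34.9, 34.6 and 36.1 in sh1-*TUG1*, and 38.0, 34.5 and 32.6 in sh2-*TUG1*. Control and knockdown libraries did not overlap, whereas the libraries of the knockdown lines overlapped each other. The means of 95.0 ± 2.13, 35.2 ± 0.801 and 35.0 ± 2.76 CPM (SD, n = 3) put sh1-*TUG1* at 37.1% and sh2-*TUG1* at 36.9% of control. The log2 fold change was -1.43 (SE 0.051) in sh1-*TUG1* and -1.44 (SE 0.066) in sh2-*TUG1*, or 2.70-fold and 2.72-fold lower. It ranked 32 from the lowest in sh1-*TUG1* and 174 in sh2-*TUG1*.

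**Figure D1:**
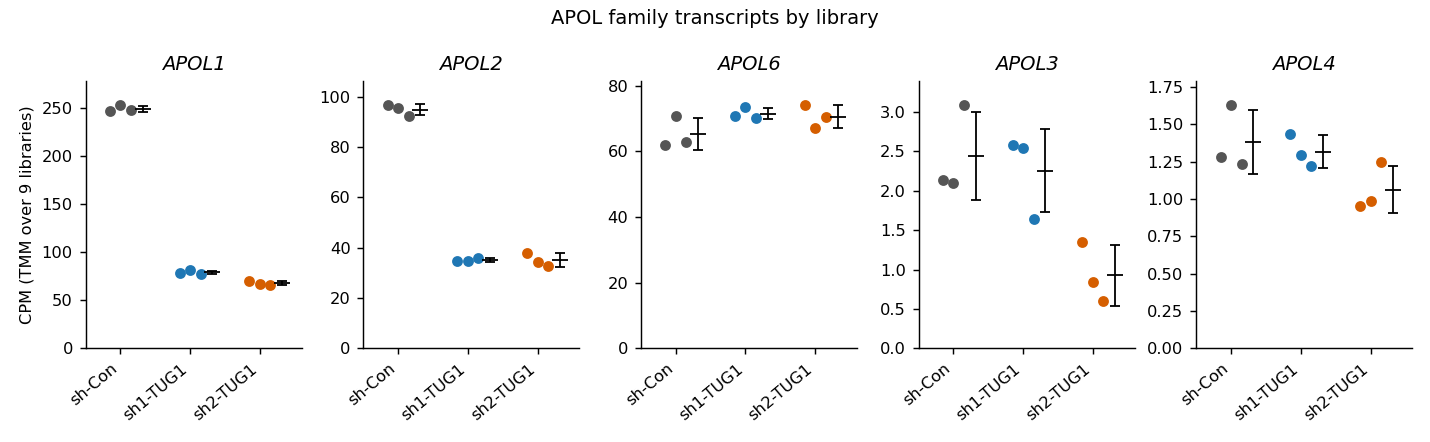
Level of each APOL gene in every library, in TMM-normalized CPM on an axis from 0 that differs between panels, with points for the 3 libraries of each group and a bar for the mean ± SD. *APOL1* and *APOL2* sit at 249 and 95.0 CPM in sh-Con and below 82 and 39 CPM in every knockdown library, *APOL6* stays between 62.0 and 74.0 CPM throughout, and *APOL3* is lower in sh2-*TUG1* alone.

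*APOL6*, an intracellular member linked to cell death and interferon responses, was not lower in either line. Its counts were 2034, 2395 and 2348 in sh-Con, 2420, 2662 and 2647 in sh1-*TUG1*, and 2407, 2248 and 2723 in sh2-*TUG1*. The means were 65.3 ± 4.84, 71.5 ± 1.68 and 70.6 ± 3.38 CPM (SD, n = 3), and the groups overlapped in both comparisons with the control. Its log2 fold change was 0.13 (SE 0.062) in sh1-*TUG1* and 0.11 (SE 0.068) in sh2-*TUG1*.

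*APOL3*, which acts on membranes of the Golgi and of intracellular bacteria, was scarce and differed between the lines. Its counts were 70, 71 and 115 in sh-Con, 88, 92 and 62 in sh1-*TUG1*, and 44, 28 and 23 in sh2-*TUG1*. The sh1-*TUG1* libraries overlapped the control, and the sh2-*TUG1* libraries lay below all other libraries. Levels averaged 2.44 ± 0.556, 2.25 ± 0.527 and 0.929 ± 0.387 CPM (SD, n = 3) in the same order of groups. Where sh2-*TUG1* is set against the control, *APOL3* is listed through the control. The log2 fold change was -0.12 (SE 0.25) in sh1-*TUG1* and -1.41 (SE 0.32) in sh2-*TUG1*, the latter 2.65-fold lower and between -1.77 and -1.16 when each library was left out in turn. In sh1-*TUG1* the sign depended on single libraries, with 0.081 without sh-Con replicate 3 and 0.063 without sh1-*TUG1* replicate 3.

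*APOL4* had the lowest mean level of the members in sh-Con and sh1-*TUG1*, and in sh2-*TUG1* it lay close to *APOL3*. Its counts were 42, 55 and 46 in sh-Con, 49, 47 and 46 in sh1-*TUG1*, and 31, 33 and 48 in sh2-*TUG1*, with overlap between all groups. Levels were 1.38 ± 0.215, 1.32 ± 0.109 and 1.06 ± 0.159 CPM (SD, n = 3). The log2 fold change of -0.068 (SE 0.23) in sh1-*TUG1* was small beside its error and became 0.060 without sh-Con replicate 2. In sh2-*TUG1* it was -0.37 (SE 0.25), and between -0.51 and -0.24 when each library was left out in turn. Where sh2-*TUG1* is set against the control, *APOL4* too is listed through the control. A moderate change of *APOL4* was not detectable at this depth.

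Across the family, 2 of 5 members had sh1-*TUG1* libraries all below the control libraries, a separation that 20.4% of all genes also showed, and 3 of 5 did in sh2-*TUG1*, beside 27.4% of all genes. No member had its knockdown libraries all above the control in either line, beside 21.3% and 27.1% of genes. These counts follow from how the family was picked and are not read further.

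**Figure D2:**
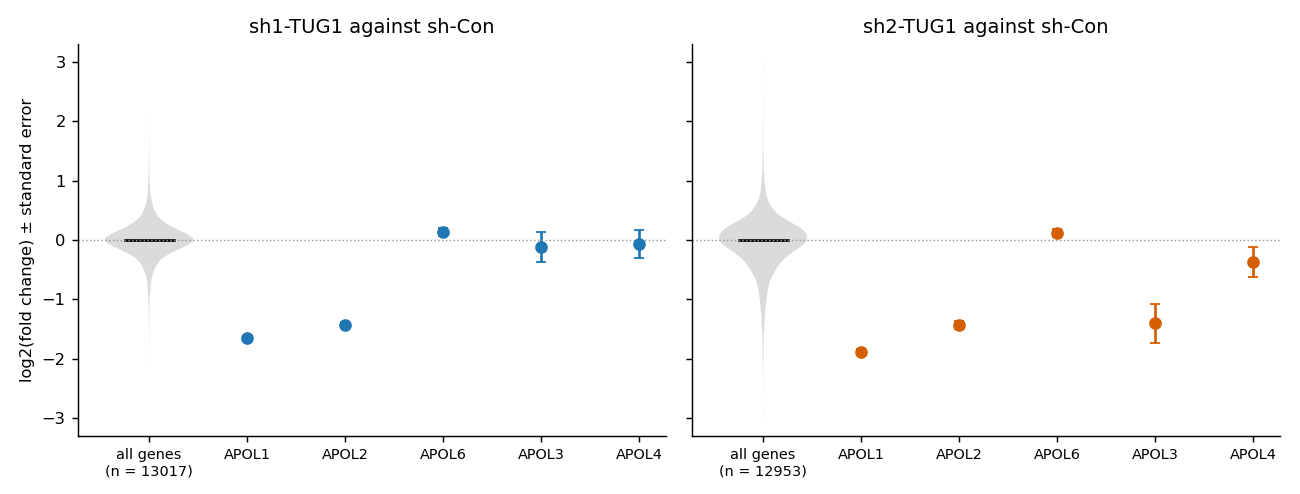
Log2 fold change against sh-Con of the 5 APOL genes (points, with the standard error as bars) beside the spread of all genes (grey shape, drawn to within 3 of 0, with the median as a line), in sh1-*TUG1* and sh2-*TUG1*. *APOL1* at -1.66 and -1.88 and *APOL2* at -1.43 and -1.44 lie far below the median of all genes near 0, *APOL6* lies at 0.13 and 0.11, and *APOL3* moves from -0.12 to -1.41.

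Levels of different members were compared per kilobase of the longest coding transcript. In sh-Con, *APOL1* stood at 83.0 CPM per kilobase, followed by *APOL2* at 35.4, *APOL6* at 6.45, *APOL3* at 0.672 and *APOL4* at 0.403. The order was the same in sh1-*TUG1*, at 26.4, 13.1, 7.06, 0.621 and 0.385 CPM per kilobase. In sh2-*TUG1* the values were 22.6, 13.1, 6.98, 0.256 and 0.310, and *APOL3* and *APOL4* overlapped there. Summed over the 5 genes, the family fell from 126 ± 1.83 CPM per kilobase in sh-Con to 47.5 ± 0.666 in sh1-*TUG1* and 43.2 ± 2.02 in sh2-*TUG1* (SD, n = 3). *APOL1* made up 65.9% of that sum in sh-Con, 55.4% in sh1-*TUG1* and 52.3% in sh2-*TUG1*, whereas the share of *APOL6* was 5.12%, 14.9% and 16.2%. The place of *APOL6* depends on the length used, since most of its transcript is 3′ UTR. Per kilobase of coding sequence, *APOL6* lay below *APOL1* in sh-Con (60.3 to 68.8 against 198.8 to 203.5 CPM per kilobase) but above it in sh1-*TUG1* (68.2 to 71.3 against 62.3 to 65.4) and in sh2-*TUG1* (65.4 to 72.0 against 53.2 to 56.4).

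The ratio of *APOL2* to *APOL1* per kilobase differed between all groups. It was 0.426 ± 0.010 in sh-Con, 0.498 ± 0.023 in sh1-*TUG1* and 0.578 ± 0.028 in sh2-*TUG1* (SD, n = 3), with no overlap of the libraries of any group. *APOL1* was thus reduced somewhat more than *APOL2*, and more so in sh2-*TUG1*.

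The knockdown lines were also compared with each other, in a fit of all 9 libraries. For 2 of 5 members every sh2-*TUG1* library was below every sh1-*TUG1* library, as for 27.6% of all genes, and for 0 members every library was above, as for 27.8%. *APOL1* was 1.17-fold lower in sh2-*TUG1*, with a log2 fold change of -0.22 (SE 0.042). *APOL2* was at nearly the same level in both, with a log2 fold change of -0.0084 (SE 0.061), whose sign turned with the library left out (-0.071 to 0.040). *APOL3* was 2.44-fold lower in sh2-*TUG1*, at -1.28 (SE 0.32) on the log2 scale. *APOL4* and *APOL6* had log2 fold changes of -0.30 (SE 0.23) and -0.018 (SE 0.060), and their libraries overlapped.

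The tables hold 15 other genes within 1 Mb of *APOL1* or *APOL2*, and none of them differed from the control by as much as either in any line. Differentially expressed genes (DEGs) were called at a fold change over 1.5 and an edgeR adjusted p under 0.05, which 2.52% of all genes passed as lower and 2.44% as higher in sh1-*TUG1*, and 8.97% and 4.35% in sh2-*TUG1*. In sh1-*TUG1*, 0 of the 15 neighbours were DEGs by edgeR or DESeq2, although 6 had an unadjusted p under 0.05. Their median log2 fold change was 0.044. *MYH9*, the non-muscle myosin gene next to *APOL1*, had log2 fold changes of -0.018 (SE 0.050, adjusted p 0.837) in sh1-*TUG1* and -0.016 (SE 0.056, adjusted p 0.840) in sh2-*TUG1*. *RBFOX2*, a splicing factor gene between *APOL6* and *APOL3*, had -0.038 (SE 0.050) and -0.052 (SE 0.053), with adjusted p 0.632 and 0.457. *HMOX1*, the heme oxygenase gene, was lower in sh1-*TUG1* by an adjusted p of 0.00042 at a log2 fold change of -0.41 (SE 0.051), short of the fold limit. In sh2-*TUG1*, 3 of the 15 fell as DEGs: *TMPRSS6*, a liver protease gene of iron control, at -1.32 (SE 0.25, adjusted p 0.0024), *HMGXB4* at -0.75 (SE 0.098, adjusted p 0.00029) and *MCM5*, a replication helicase subunit gene, at -0.73 (SE 0.14, adjusted p 0.0028). All 3 lie towards the edges of the window, but so do most of the 15, so nothing on distance is read from this. *MPST* was higher at 0.37 (adjusted p 0.0012) without reaching the fold limit, and it overlaps *TST* on the other strand, whose reads cannot be told apart from its own unless strand was used in counting.

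**Figure D3:**
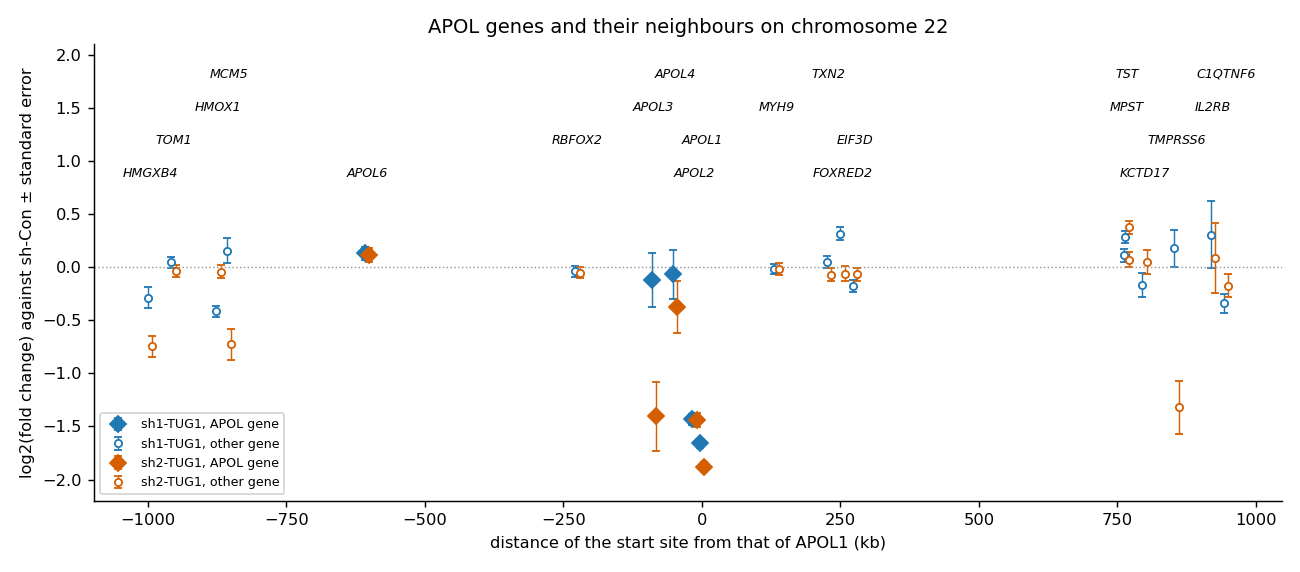
Log2 fold change against sh-Con, with the standard error as bars, of the APOL genes (filled diamonds) and the 15 other genes of the tables within 1 Mb (open circles), by distance of the start site from that of *APOL1* in kb, in sh1-*TUG1* (blue) and sh2-*TUG1* (orange), drawn slightly apart so that both show. *APOL1* and *APOL2* are the points below -1.4 in both lines, and *MYH9* and *RBFOX2* on either side lie near 0.

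Genes of the pathways known to induce the APOL family were compared next, from lists described by their counts of DEGs and their medians, all on the scale of log2 fold changes. Each count stands beside the share of all genes, 2.44% higher and 2.52% lower in sh1-*TUG1*, and 4.35% and 8.97% in sh2-*TUG1*. Of 17 measured genes of the interferon signal chain (receptors, kinases, STAT and IRF factors and their inhibitors), 1 rose and 0 fell as DEGs in sh1-*TUG1*, and 1 rose and 2 fell in sh2-*TUG1*, with medians of 0.030 and 0.11. *IRF9*, the DNA-binding subunit of the complex that drives type I interferon responses, rose by a log2 fold change of 0.94 (SE 0.27, adjusted p 0.030) in sh1-*TUG1* and 1.18 (SE 0.27, adjusted p 0.0067) in sh2-*TUG1*. Its control libraries ranged from 4.41 to 12.2 CPM, and the sh1-*TUG1* count of DEGs in this list was 0 by DESeq2 and without sh-Con replicate 3 or any single sh1-*TUG1* library. Of the 3 inhibitors of the chain, *USP18* (-1.13, SE 0.13, adjusted p 0.00012) and *SOCS1* (-0.79, SE 0.14, adjusted p 0.0018) fell in sh2-*TUG1*, while *SOCS3* was at 0.40 (SE 0.22, adjusted p 0.17). In sh1-*TUG1* they were at -0.30, 0.14 and 0.23 and none passed.

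Of 45 measured interferon-induced genes, 0 were DEGs in sh1-*TUG1* by edgeR or DESeq2, although 12 had an unadjusted p under 0.05, and their median log2 fold change was -0.025. By the adjusted p alone 3 were higher and 1 lower, *IFITM2* at -0.43 (SE 0.077, adjusted p 0.0032). In sh2-*TUG1*, 4 of 42 rose and 6 fell, with a median of -0.20 beside -0.0048 for all genes. Guanylate-binding proteins *GBP1* (-1.17, SE 0.28, adjusted p 0.0079) and *GBP3* (-1.11, SE 0.24, adjusted p 0.0047) and the antiviral membrane proteins *IFITM2* (-0.99, SE 0.076, adjusted p 1.2e-05) and *IFITM1* (-0.90, SE 0.18, adjusted p 0.0032) fell. Reads of each may be split with related genes of its family. *GBP1* averaged 1.30 CPM in sh-Con and 0.581 in sh2-*TUG1*, *GBP3* averaged 2.57 and 1.18, and both are listed there through the control. *UBE2L6*, an enzyme of *ISG15* conjugation, fell (-0.78, SE 0.082, adjusted p 8.0e-05), whereas the RNA sensor gene *DDX58* rose by 0.88 (SE 0.086, adjusted p 5.1e-05). *ISG15* (-0.12 and 0.10) and *MX1* (0.056 and -0.10), widely used readouts of interferon, passed in neither line. Between the lines, 2 of the 42 were higher and 5 lower as DEGs in sh2-*TUG1*, beside 2.56% and 8.04% of all genes.

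Among 18 measured genes of the TNF and NF-kB pathway, 1 rose in sh1-*TUG1* and 1 rose and 2 fell in sh2-*TUG1*, with medians of -0.030 and 0.15. *NFKBIA*, which holds NF-kB in the cytoplasm, rose by 0.64 (SE 0.084, adjusted p 0.00059) and 1.12 (SE 0.087, adjusted p 1.2e-05), and the sh1-*TUG1* count was 0 without sh-Con replicate 3. *BIRC3*, an inhibitor of apoptosis, fell in sh2-*TUG1* (-1.52, SE 0.29, adjusted p 0.0024) and was at -0.82 (adjusted p 0.058) in sh1-*TUG1*. *TNFAIP3*, a deubiquitinase that limits NF-kB, fell in sh2-*TUG1* (-1.02, SE 0.12, adjusted p 0.00019) and was at -0.37 in sh1-*TUG1*, short of the fold limit.

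*APOL1* travels on HDL, and 18 genes of HDL proteins and remodelling were measured. In sh1-*TUG1* 2 rose and 1 fell, with a median of 0.011. In sh2-*TUG1* 0 rose and 7 fell, with a median of -0.47, and by the adjusted p alone 1 was higher and 14 lower, beside 21.6% and 21.9% of all genes. *HPR*, the haptoglobin-related protein that accompanies *APOL1*, rose in sh1-*TUG1* by 1.36 (SE 0.11, adjusted p 4.0e-05) and fell in sh2-*TUG1* (-1.11, SE 0.26, adjusted p 0.0072). Its near-identical relative *HP*, haptoglobin, rose by 1.44 (SE 0.084, adjusted p 4.6e-06) and fell likewise (-1.31, SE 0.13, adjusted p 6.4e-05), and reads of the pair may be split between the copies. *APOL1* was lower in both lines, so its level and that of *HPR* differed in direction in sh1-*TUG1*. The phospholipid transfer protein gene *PLTP* fell in sh2-*TUG1* (-1.24, SE 0.12, adjusted p 4.0e-05), as did *APOC3* (-1.13, SE 0.12, adjusted p 6.2e-05), *APOF* (-0.86, SE 0.097, adjusted p 0.00011) and the HDL receptor gene *SCARB1* (-0.70, SE 0.054, adjusted p 1.1e-05). In sh1-*TUG1* these were at -0.21, -0.30, -0.33 and -0.31 and passed the fold limit in no case. By the adjusted p alone *APOC3* (0.042), *APOF* (0.028) and *SCARB1* (0.0014) were lower there, and *PLTP* (0.17) was not. *APOA1*, the main HDL protein, was at -0.0022 (adjusted p 0.98) and -0.35 (adjusted p 0.00095). It was no DEG, since the fall in sh2-*TUG1* stayed short of the fold limit. Set against sh1-*TUG1*, 6 of the 18 were lower and 0 higher as DEGs in sh2-*TUG1*, beside 8.04% and 2.56% of all genes.

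*APOL3* is known to meet the calcium sensor *NCS1* and the kinase *PI4KB* at the Golgi. A list of these with genes of vesicle fusion and *UBD*, a ubiquitin-like modifier gene induced by interferon gamma and TNF, had 5 measured members, of which 0 were DEGs in sh1-*TUG1* by edgeR or DESeq2, with 1 at an unadjusted p under 0.05. In sh2-*TUG1* *NCS1* (-0.94, SE 0.16, adjusted p 0.0012) and *UBD* (-1.25, SE 0.30, adjusted p 0.0085) fell, while *PI4KB* (0.44, SE 0.056, adjusted p 0.00026) and *VAMP8* (0.32, SE 0.068, adjusted p 0.0045) were higher without reaching the fold limit. *UBD* averaged 3.32 CPM in sh-Con and 1.38 in sh2-*TUG1*, and is listed there through the control. The list medians were -0.030 and 0.12. Of 18 measured *BCL2* family genes, to which *APOL6* has been linked by a BH3-like stretch, 1 rose and 2 fell in sh1-*TUG1* and 0 rose and 2 fell in sh2-*TUG1*, with medians of 0.015 and 0.15. Over all genes, 2.44% rose and 2.52% fell in sh1-*TUG1*, and 4.35% rose and 8.97% fell in sh2-*TUG1*. The mitophagy receptor genes *BNIP3* (-0.68 and -0.78, SE 0.050 and 0.048) and *BNIP3L* (-0.64 and -0.60, SE 0.044 and 0.052) fell in both lines at adjusted p of 1.9e-05 and 3.0e-06, and 1.4e-05 and 2.2e-05. In sh2-*TUG1* the count was 1 without sh-Con replicate 2 or sh2-*TUG1* replicate 2. *BIK*, a death-promoting member, rose in sh1-*TUG1* by 1.09 (SE 0.28, adjusted p 0.020), a call lost without sh-Con replicate 2 or 3 or sh1-*TUG1* replicate 2 or 3. It averaged 0.950 CPM in sh-Con and 2.02 in sh1-*TUG1*, and is listed through sh1-*TUG1*.

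**Figure D4:**
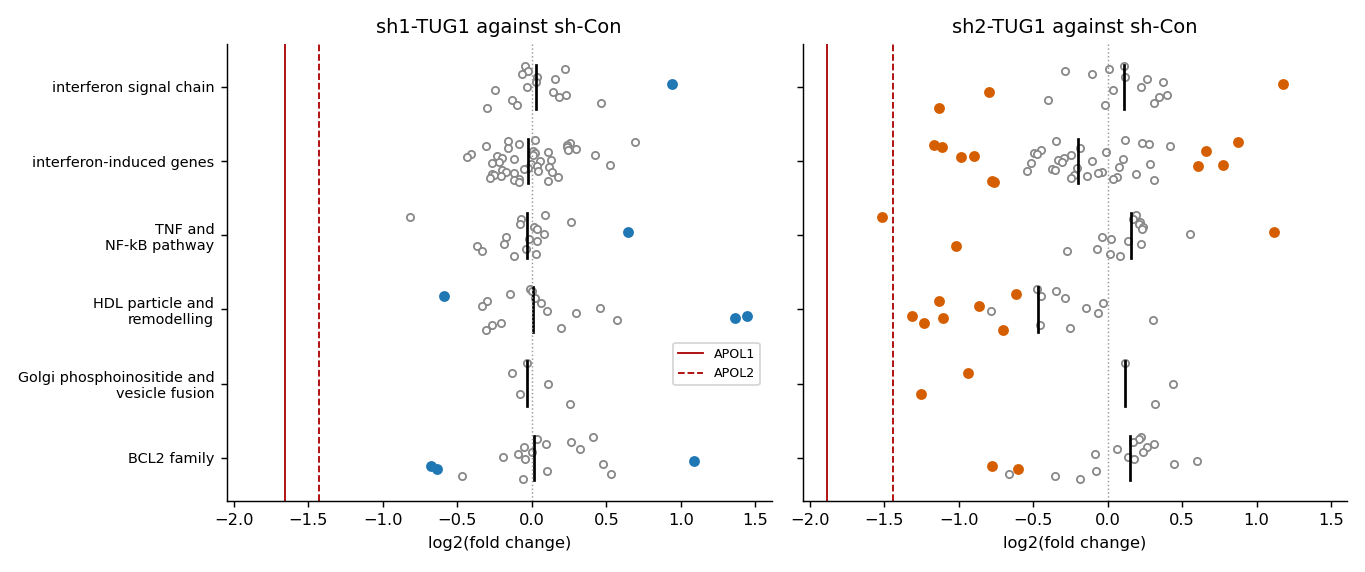
Log2 fold change against sh-Con of the measured genes of 6 lists (open circles, with DEGs filled and a black bar at the list median), in sh1-*TUG1* and sh2-*TUG1*, with red lines at *APOL1* (solid) and *APOL2* (dashed). All list genes lie to the right of both red lines in sh1-*TUG1*. In sh2-*TUG1*, *BIRC3* at -1.52, a scarce gene listed through the control, is the 1 gene beyond *APOL2*.

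The genes whose profile over the 9 libraries was most like that of each member were found by the root mean square difference of log2 CPM, centred on each gene's mean, among 10820 named genes with a mean of at least 100 counts. Such a profile is set mainly by the differences between groups, so likeness is a description. Among the 5 for *APOL1* were *HCAR3* (0.126), *IGFBP3* (0.156), *APOL2* (0.186) and *RNASET2* (0.186). *IGFBP3*, a carrier of insulin-like growth factors, was at 89.0 ± 2.99 CPM in sh-Con, 28.8 ± 1.75 in sh1-*TUG1* and 29.3 ± 2.78 in sh2-*TUG1* (SD, n = 3). *HCAR3* has a near-identical relative in *HCAR2*, and its counts are uncertain.

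For *APOL2* the list was *EGLN3* (0.088), *HCAR3* (0.113), *IGFBP3* (0.133), *NDRG1* (0.136) and *PDK1* (0.147), with *APOL1* at 0.186. *EGLN3*, a prolyl hydroxylase gene, was at 87.9 ± 4.72, 35.8 ± 0.784 and 31.8 ± 1.79 CPM, close to the 95.0, 35.2 and 35.0 CPM of *APOL2* in proportion. *PDK1*, which restrains pyruvate dehydrogenase, was at 78.2 ± 4.12, 34.4 ± 2.43 and 29.2 ± 0.946 CPM. Among the profiles closest to *APOL3* was that of the collagen gene *COL9A2* (0.304), at 18.2, 17.8 and 6.77 CPM. For *APOL4* the closest was *ZNF185* (0.080) and for *APOL6* *MAP2K5* (0.032), both with small differences between groups. *APOL1* and *APOL2* were far from the rest of the family, at 0.617 to 0.897 from *APOL3*, *APOL4* and *APOL6*.

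**Figure D5:**
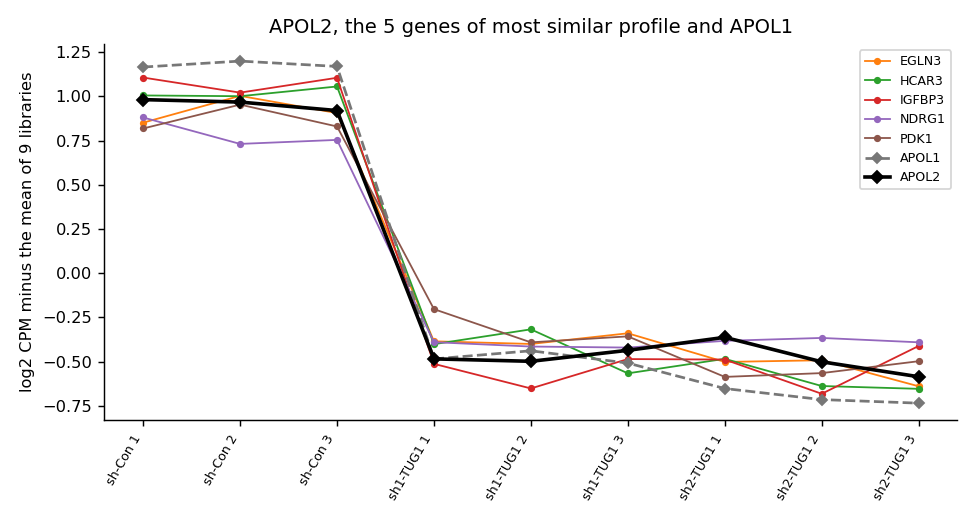
Log2 CPM by library, less each gene's mean over the 9 libraries, of *APOL2* (black), the 5 genes of most similar profile (colours) and *APOL1* (grey, dashed). All 7 genes drop between the control and the knockdown libraries, with *APOL1* higher than *APOL2* in the control and, on this scale, the differences among the genes small beside that drop.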

How the data were processed

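RNA was measured in 9 HepG2 libraries (NEBNext Ultra kit, sequenced and processed by a company). GRCh38, HISAT2 and StringTie are named in the submitters' processing notes; how reads were counted, and whether strand was used, is not given in the sources used here. The authors deposited, per knockdown line, raw read counts per gene with no normalization, for 13017 genes (sh1-*TUG1*) and 12953 (sh2-*TUG1*) in which the lowest total count was 152 and 140. The deposited FPKM values were not used, nor were the authors' adjusted p-value (FDR) and log2 fold change columns, which hold their own comparisons. Control counts were identical in both tables. Groups and replicate numbers come from the sample labels.

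Counts were tested in R 4.3.3 with edgeR 4.0.16 (TMM, quasi-likelihood, Benjamini-Hochberg adjustment over all genes), each line against sh-Con in its 6 libraries and the lines against each other in a fit of all 9. The study's limits for DEGs were kept (adjusted p under 0.05, fold change over 1.5). The SE of a log2 fold change is its size divided by the square root of the F statistic. CPM was TMM-normalized over 9 libraries and the 12854 genes in both tables, and profiles used log2 CPM with a prior count of 2. DESeq2 1.42.0, RLE factors, library size alone, a filter of 1 CPM in 3 libraries, a fit of all 9 libraries, a test against the fold limit, a replicate block, coding length and leaving out each library were the alternatives. The filter of 1 CPM in 3 libraries changed no call count, so the listed genes already met that limit. A gene scarce in 1 group is then listed through the group where it is higher, which partly sets the direction of its change. That holds for *BIK* in sh1-*TUG1*, *BIRC3* in both lines, and *GBP1*, *GBP3*, *UBD*, *APOL3* and *APOL4* in sh2-*TUG1*. On simulated counts with 200 changed genes per comparison, edgeR recovered 100.0% of them in each. It made 0 false calls among 13017 genes for sh1-*TUG1*, 2 among 12953 for sh2-*TUG1* and 0 among 12854 between the lines. DESeq2 recovered 100.0%, 99.0% and 99.5%. The changed genes were drawn from the better counted ones, with changes beyond the 1.5-fold limit and the same spread between replicates for every gene. Near-full recovery and few false calls were thus close to assured, and changes near the limit were not simulated. How far the recovery and false calls hold for scarce or variable genes of the real libraries, such as *APOL3* and *APOL4*, was not tested.

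The members, lists and tests were chosen with earlier results of these data known. Named genes were the members, up to 6 DEGs per list by size of change, genes within 1 Mb of *APOL1* or *APOL2*, and the 5 genes most alike to each member; list genes that did not pass could be named with values. Some items that this rule or the sequence search would name are not reported here. Lengths, positions and UTRs came from GENCODE 29, and the miR-122-5p sequence from RefSeq. Replicate numbers did not pair the libraries, since same-numbered libraries had correlations of their deviations from the group means of -0.33 to 0.011. SDs, SEs and p-values measure only the spread between these libraries.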

Additional observations from a re-analysis of the deposited data

Results flagged for a closer look

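*HP* and *HPR* moved in opposite directions in the knockdown lines, and the difference between the lines was tested in the fit of all 9 libraries. *HP* was at 18.2 ± 2.32 CPM in sh-Con, 49.4 ± 1.18 in sh1-*TUG1* and 7.32 ± 1.07 in sh2-*TUG1* (SD, n = 3), a log2 fold change between the lines of -2.75 (SE 0.11, edgeR adjusted p 5.3e-08). *HPR* was at 5.91 ± 0.664, 15.2 ± 0.572 and 2.75 ± 1.02 CPM, a difference of -2.47 (SE 0.21, edgeR adjusted p 3.8e-06). Every sh1-*TUG1* library was above every control library for both genes, and every sh2-*TUG1* library below. *HP* and *HPR* are near-identical paralogs, so part of the counts of either may belong to the other.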

How the results depend on the processing

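Of 471 alternatives over 39 results, 449 stayed within the spread of the replicates or within 1.5 times the count. Those with the filter of 1 CPM in 3 libraries are among the 449 but only repeat the main results, since the filter changed nothing. Leaving out a library can hardly move a fold change or ratio beyond the spread of the replicates. Those alternatives were thus nearly bound to stay within the limit, and their number says little on robustness. A test against the 1.5-fold limit itself left 114 calls in sh1-*TUG1* (45 higher, 69 lower, against 646), 600 in sh2-*TUG1* (201 and 399, against 1726) and 330 between the lines (67 and 263, against 1362). Library size alone in place of TMM gave *APOL1* -1.92 in sh2-*TUG1* and -0.29 between the lines, and coding length gave *APOL2* to *APOL1* ratios of 0.468, 0.548 and 0.635. Leaving out each library gave, for sh1-*TUG1*, -1.68 to -1.64 for *APOL1*, -1.45 to -1.42 for *APOL2*, 552 to 687 calls and 0 interferon-induced DEGs throughout. For sh2-*TUG1* it gave -1.90 to -1.86, -1.501 to -1.39, 1601 to 1700 calls and 9 to 10 interferon-induced DEGs, and between the lines -0.25 to -0.20, -0.071 to 0.040, 1227 to 1375 calls and 6 to 8. The ratio ranged over 0.420 to 0.430 in sh-Con, 0.486 to 0.509 in sh1-*TUG1* and 0.563 to 0.591 in sh2-*TUG1*. With the replicate number as a block, *APOL1* was at -1.66 and -1.88 and *APOL2* at -1.43 and -1.44, with 597, 1646 and 1300 calls, and no call on a list changed in number by over 1.5 times; the numbers did not pair the libraries, so this is the only use made of them. *APOL3* and *APOL4* rest on 23 to 115 counts per library, which limits what can be said of them.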
